A study of Mus musculus with 2 samples.

Results

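The 6 genes Mir10a, Mir10b, Mir196a-1, Mir196a-2, Mir196b and Mir615 are the named microRNA (miRNA) genes that lie inside the mouse Hox clusters. They were chosen by gene name, as the entries of these names in the GENCODE M21 annotation, out of 2202 miRNA genes in the count tables. The study sequenced size-selected small RNA from total RNA of hippocampus, labelled as a layer of it. The mice were females of the strain B6CASTF1/J, the F1 of a cross between CAST/EiJ and C57BL/6J, and were 36 days old. There was 1 group of 2 libraries, biological replicates 1 and 2, with no treatment, mutation or second tissue to set against it. The labels give the libraries separate biosamples and sample names but 1 donor entry, so they do not settle whether separate animals were used, and the spread between the libraries may be technical.

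Hox clusters are rows of transcription factor genes whose order along the chromosome follows the order in which they act along the body axis. The miRNAs encoded between them repress target messenger RNAs by pairing through a seed at their 5′ end. In vertebrates mir-10 and mir-196 are known from the hindbrain, the spinal cord and the posterior trunk, like the Hox genes beside them, and miR-196 is known to direct cleavage of Hoxb8 messenger RNA in mouse embryos. The hippocampus is part of the forebrain, where Hox genes are known to be little transcribed, so these miRNAs are not counted among its usual ones.

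Mature arms, the 5′ arms of mir-10 and mir-196 and the 3′ arm of Mir615, are shown first because they decide which genes can be told apart. All 6 genes had mature sequences in RefSeq (build GRCm38.p6, the same assembly as mm10), printed 5′ to 3′ with the seed, bases 2 to 8, in capitals.
miR-10a-5p: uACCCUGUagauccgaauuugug
miR-10b-5p: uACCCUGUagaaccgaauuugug
miR-196a-5p: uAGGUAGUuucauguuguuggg
miR-196b-5p: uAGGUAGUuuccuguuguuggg
miR-615-3p: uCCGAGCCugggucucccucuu

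The 5 sequences fell into 3 seeds. The miR-10 seed was shared by miR-10a-5p and miR-10b-5p and by no other named mature sequence of the table, and the miR-196 seed by miR-196a-5p and miR-196b-5p alone. The seed of miR-615-3p was found in no other entry. Counting positions from 1 at the 5′ end, miR-10a-5p and miR-10b-5p differed by a single substitution, U12A, and miR-196a-5p and miR-196b-5p by a single substitution at the same position, A12C. Outside the 6 genes the nearest mature sequence to miR-10a-5p was miR-100-5p, at 3 edits over 23 bases, and none came closer than 7 edits to miR-196a-5p. The letters of the miR-196 seed also stand in 8 of 9 let-7 and miR-98 5p sequences, where they begin at base 3 and not at base 2.

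The hairpins of Mir196a-1 and Mir196a-2 are given in full, because they carry the same 5′ arm. Capitals mark the longest stretch that both hold, which is 22 bases and equals the mature 5′ arm.
Mir196a-1 (chr11:96265164-96265265, plus strand): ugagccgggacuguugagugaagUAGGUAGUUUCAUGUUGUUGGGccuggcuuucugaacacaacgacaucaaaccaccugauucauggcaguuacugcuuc
Mir196a-2 (chr15:102973350-102973434, plus strand): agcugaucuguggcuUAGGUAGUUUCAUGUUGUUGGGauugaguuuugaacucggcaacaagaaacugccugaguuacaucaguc

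A read of that arm alone fits both places, and reads with several places were counted apart and given to no gene. The counts of these 2 genes therefore cannot hold such reads, and few or no reads there do not show that miR-196a-5p was absent. Of stretches of 20 bases, 3 of 83 in Mir196a-1 and 3 of 66 in Mir196a-2 were shared, each with the other gene of the pair. None was shared between Mir10a, Mir10b, Mir196b or Mir615 and any other annotated miRNA gene, although 1084 of the 2202 hairpins shared at least 1. The longest stretch common to Mir10a and Mir10b was 15 bases, shorter than any of their mature arms. Copies outside annotated miRNA genes were not analysed here.

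All 6 genes lay between the outermost Hox genes of their clusters (assembly mm10, GENCODE M21). Mir10b (ENSMUSG00000065500.3, chromosome 2, 74726070 to 74726137, plus strand) lay in introns of the gene models of Hoxd3 and Hoxd4. Mir10a (ENSMUSG00000065519.1, chromosome 11, 96317165 to 96317274, plus strand) lay between genes, 993 bp upstream of Hoxb4. Mir196b (ENSMUSG00000065443.1, chromosome 6, 52230081 to 52230165, minus strand) lay within an exon of 2 of 5 Hoxa9 transcripts and 1032 bp downstream of Hoxa10. Mir196a-2 (ENSMUSG00000065488.2) and Mir615 (ENSMUSG00000076010.1, chromosome 15, 103014910 to 103015001, plus strand) both lay in introns of the long gene model of Hoxc5, with Mir196a-2 between Hoxc10 and Hoxc9. Mir196a-1 (ENSMUSG00000065546.1) lay between genes, 6192 bp upstream of Hoxb9. The only other annotated miRNA gene in the 4 clusters, Gm44463 in the Hoxd cluster, had no read in either library.

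**Figure D1:**
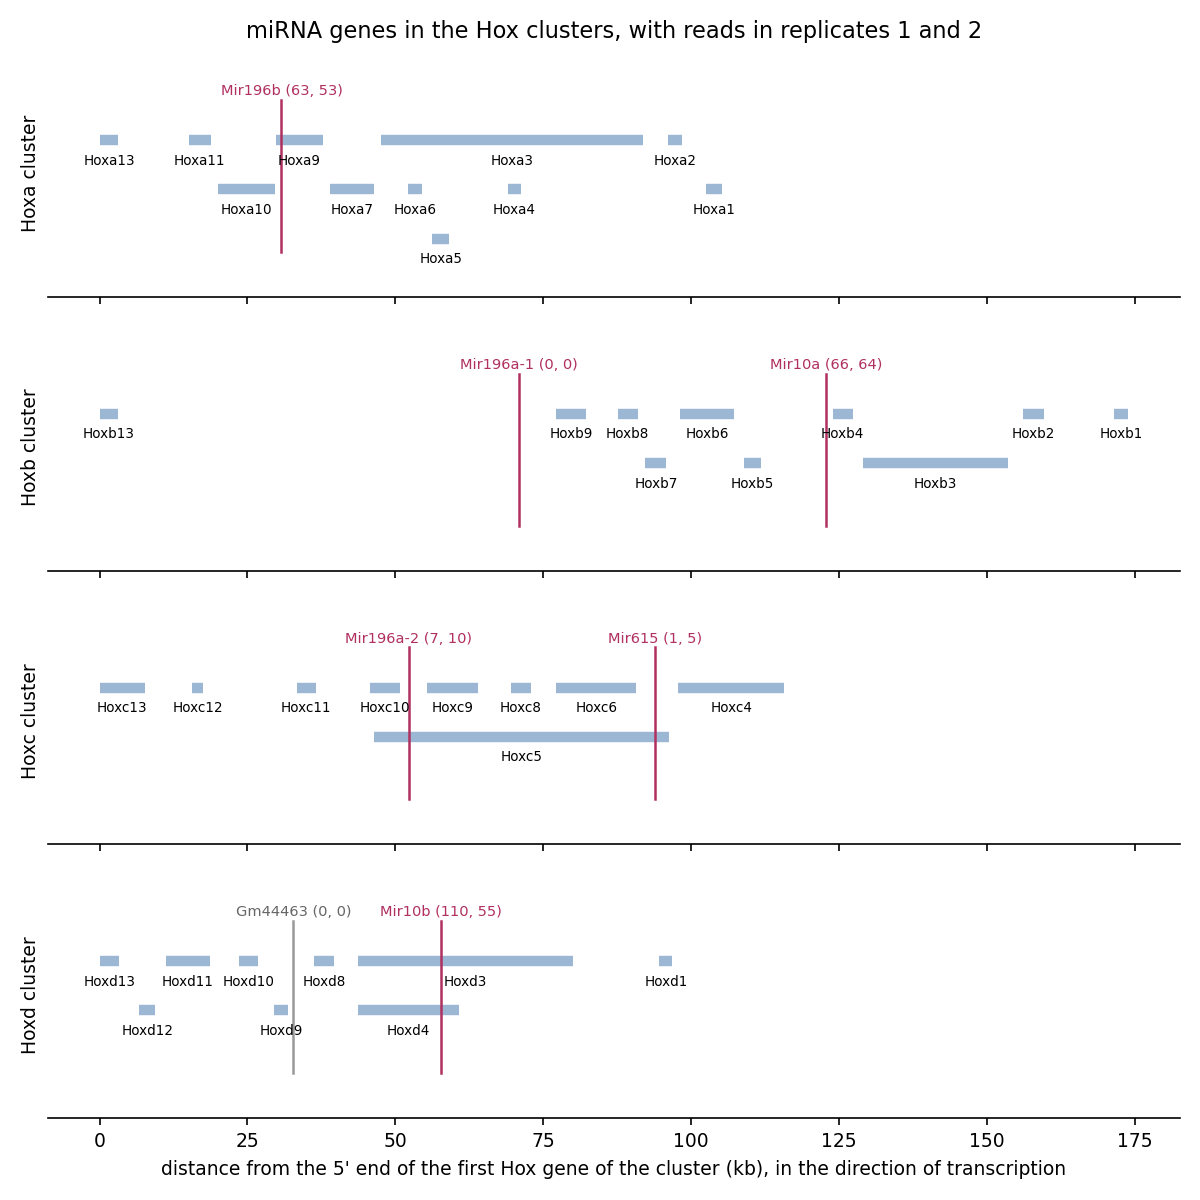
The 4 Hox clusters drawn to scale, with distance in kb from the start of the first Hox gene on the x axis, Hox gene models as bars and annotated miRNA genes as vertical lines with their sense reads in replicates 1 and 2. The Hoxa, Hoxb and Hoxd clusters each hold 1 gene with 53 or more reads in each library (Mir196b, Mir10a and Mir10b), while the Hoxc genes Mir196a-2 and Mir615 hold 10 or fewer.

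Of all reads in the count tables, 2928141 of 9595913 in replicate 1 and 3644157 of 10489588 in replicate 2 were sense reads on miRNA genes, and levels are given as counts per 1000000 of these (CPM). A miRNA read covers a mature arm and not the whole hairpin, so levels were not divided by hairpin length. Where a gene had no read, the limit given is that of 3 counts (1.02 CPM for replicate 1, 0.823 CPM for replicate 2). Intervals and limits cover counting error only. Reads with several places made up 38.9% and 45.8% of the tables of replicates 1 and 2. Of 10 neuronal genes listed as a check of the tissue 6 were detected, with Mir132, induced by neuronal activity, highest by mean at 11395 ± 1073 CPM (SD, n = 2). Mir132 was at 12153 CPM in replicate 1 and 10636 CPM in replicate 2, where Mir137, at 12631 CPM, lay above it. Mir124a-1, Mir124a-2 and Mir124a-3, neuronal genes known to make 1 mature sequence, had at most 8 reads each, under the same exclusion of reads with several places.

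The Hox-cluster miRNAs were present at low levels. Together the 6 genes held 247 reads in replicate 1 and 187 in replicate 2, which are 84.4 CPM (exact Clopper-Pearson 95% interval 74.2 to 95.6) and 51.3 CPM (44.2 to 59.2). That is 0.00844% and 0.00513% of miRNA reads. Detection was set at 10 or more reads in both libraries. By this measure 3 of the 6 were detected, Mir10b, Mir10a and Mir196b, and 17.1% of all 2202 genes. The mir-10 genes made up 71.3% of the reads of the 6 genes in replicate 1 and 63.6% in replicate 2, the mir-196 genes 28.3% and 33.7%, and Mir615 0.405% and 2.67%. By cluster, the Hoxd gene was at 37.6 CPM in replicate 1 and 15.1 CPM in replicate 2, the Hoxb genes at 22.5 and 17.6 CPM, the Hoxa gene at 21.5 and 14.5 CPM, and the Hoxc genes at 2.73 and 4.12 CPM. Reads of the arm shared by Mir196a-1 and Mir196a-2 are missing from all these counts. The sum, the mir-196 share and the Hoxb and Hoxc levels may thus be too low, and the mir-10 share too high.

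Mir10b, whose miRNA is known to promote invasion of human breast cancer cells, had 110 reads in replicate 1 and 55 in replicate 2. Its level was 37.6 CPM in replicate 1 (exact Poisson 95% interval 30.9 to 45.3) and 15.1 CPM in replicate 2 (11.4 to 19.6), a mean of 26.3 ± 15.9 CPM (SD, n = 2). Its 2 intervals did not overlap, and replicate 1 held the higher level.

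Mir10a, encoded upstream of Hoxb4 and known in human cells to repress a HOX messenger RNA, had 66 reads in replicate 1 and 64 in replicate 2. This gave 22.5 CPM (17.4 to 28.7) and, for replicate 2, 17.6 CPM (13.5 to 22.4), with a mean of 20.1 ± 3.52 CPM (SD, n = 2). The intervals of the 2 libraries overlapped.

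Mir196b, of the Hoxa cluster and known from blood progenitors and leukaemia, had 63 reads in replicate 1 and 53 in replicate 2. In CPM this was 21.5 (16.5 to 27.5) for replicate 1 and 14.5 (10.9 to 19.0) for replicate 2, with a mean of 18.03 ± 4.93 CPM (SD, n = 2), again with overlapping intervals.

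The Hoxc genes and Mir196a-1 had few or no reads. For Mir196a-1 and Mir196a-2, reads of their shared arm are left out, so their counts and intervals do not bound the level of miR-196a-5p. Mir196a-2 had 7 reads in replicate 1 and 10 in replicate 2, or 2.39 CPM (0.961 to 4.93) and 2.74 CPM (1.32 to 5.05). Mir615, the miRNA of the Hoxc5 intron, had 1 read in replicate 1 and 5 in replicate 2, or 0.342 CPM (0.00865 to 1.90) and 1.37 CPM (0.446 to 3.20). Mir196a-1 had no read in either library. The hairpin of Mir615 was also the one richest in G and C among the 6, at 69.6% against a median of 50.8% over all annotated miRNA hairpins. Reads were counted per hairpin, so which arm they came from was not resolved.

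**Figure D2:**
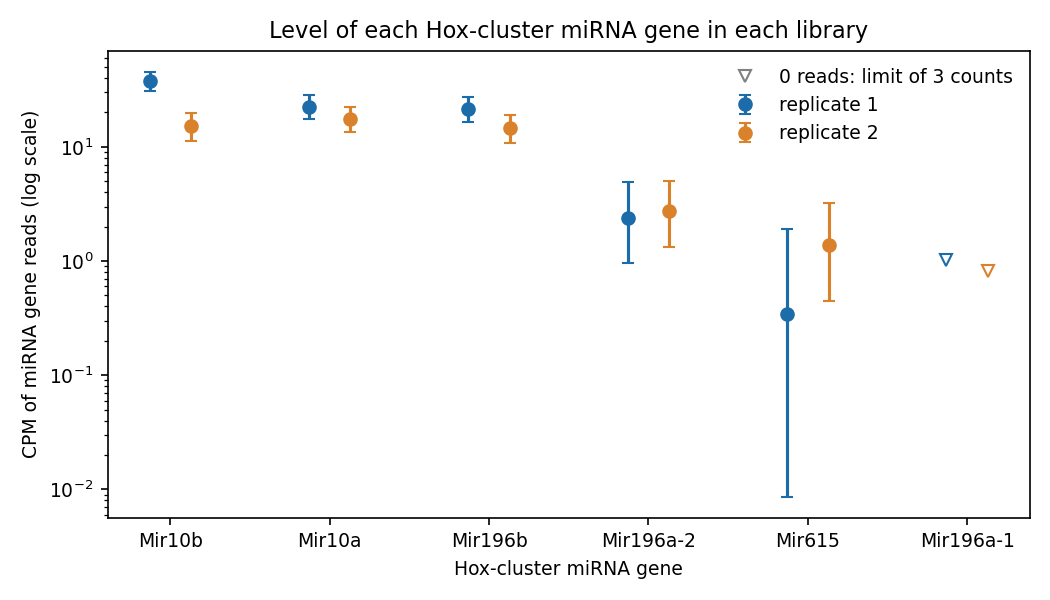
Level of each of the 6 genes in CPM on a log scale, with replicate 1 (blue) left of replicate 2 (orange). Points are the libraries, bars are exact Poisson 95% intervals that cover counting error only, and open triangles mark the limit of 3 counts where a library had 0 reads. For Mir196a-1 and Mir196a-2 neither bounds the level of miR-196a-5p, since reads of their shared arm went to no gene. Mir10b, Mir10a and Mir196b lie between 14.5 and 37.6 CPM, and the other genes lie at or under 2.74 CPM.

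By mean CPM the order was Mir10b, Mir10a, Mir196b, Mir196a-2, Mir615 and Mir196a-1. The order of the upper 3 genes was not resolved, since the range of Mir10b over the libraries overlapped that of Mir10a and the range of Mir10a overlapped that of Mir196b. Mir10b stood above Mir10a in replicate 1, with 1.67 reads per Mir10a read (exact binomial 95% interval 1.22 to 2.30), and not in replicate 2, with 0.859 (0.588 to 1.25). Mir196b had 0.955 reads per Mir10a read in replicate 1 (0.665 to 1.37) and 0.828 in replicate 2 (0.564 to 1.21). Mir196b, whose mature 5′ arm differs from that of Mir196a-2 by A12C, had more reads than Mir196a-2 in both libraries. Since reads of the shared miR-196a-5p arm go to no gene, this gap does not order the 2 miRNAs. Mir196b had 9 reads per Mir196a-2 read in replicate 1 (4.12 to 23.3) and 5.3 in replicate 2 (2.67 to 11.7), with the exclusion of shared reads from Mir196a-2 applying to both values. Mir196a-2 had 7 reads per Mir615 read in replicate 1 (0.899 to 315) and 2 in replicate 2 (0.623 to 7.46), so their order was not resolved at this depth.

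Among all 2202 genes Mir10b ranked 268 by mean CPM, Mir10a 278 and Mir196b 284. Among the 376 detected genes, 29.0% lay below Mir10b, 26.3% below Mir10a and 24.7% below Mir196b, and the median detected gene was at 152 CPM. The genes nearest to Mir10b in both libraries, by Euclidean distance of log2(CPM + 1) over the 2 libraries, were Mir193a (distance 0.188, with 113 and 63 reads in replicates 1 and 2), Mir32 (0.192, 106 and 63 reads) and Mir103-2 (0.408, 139 and 46 reads). For Mir10a they were Mir3064 (0.0904, 67 and 60 reads), Mir194-2 (0.127, 61 and 61 reads) and Mir6982 (0.206, 57 and 62 reads). For Mir196b they were Mir181b-1 (0.0519, 63 and 51 reads), Mir1968 (0.148, 69 and 50 reads) and Mir670 (0.185, 59 and 47 reads). With 2 libraries this likeness says only that these genes had similar counts. The nearest genes were not checked for an arm shared with another gene, whose reads would be missing from their counts.

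The relatives of mir-10 outside the Hox clusters, the mir-99, mir-100 and mir-125 genes, were far more abundant. Their 5′ arms are shown because they resemble miR-10 but differ in the seed, which is again in capitals.
miR-99a-5p: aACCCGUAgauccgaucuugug
miR-99b-5p: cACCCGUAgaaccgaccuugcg
miR-100-5p: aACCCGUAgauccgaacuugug
miR-125a-5p: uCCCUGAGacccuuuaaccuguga
miR-125b-5p: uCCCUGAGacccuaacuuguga

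Mir10a and Mir10b together were at 60.1 CPM in replicate 1 and 32.7 CPM in replicate 2, against 36102 and 53657 CPM for the 6 relatives, or 0.166% and 0.0609% of them. All 6 relatives were detected. Mir99a was at 17692 CPM in replicate 1 and 30627 CPM in replicate 2, and Mir100 at 2757 and 5304 CPM. Mir99a averaged 24159 ± 9146 CPM, Mir125a 8172 ± 804 CPM, Mir99b 7276 ± 637 CPM, Mir100 4031 ± 1801 CPM, Mir125b-1 840 ± 49.2 CPM and Mir125b-2 401 ± 24.8 CPM (SD, n = 2 each). Mir10a, whose 5′ arm is the closest to miR-100-5p among those of the 6 Hox-cluster genes, stood at 0.817% of Mir100 in replicate 1 and 0.331% in replicate 2. Mir125b-1 and Mir125b-2 make the same 5′ arm, so their levels are uncertain in the way described for the mir-196a pair.

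**Figure D3:**
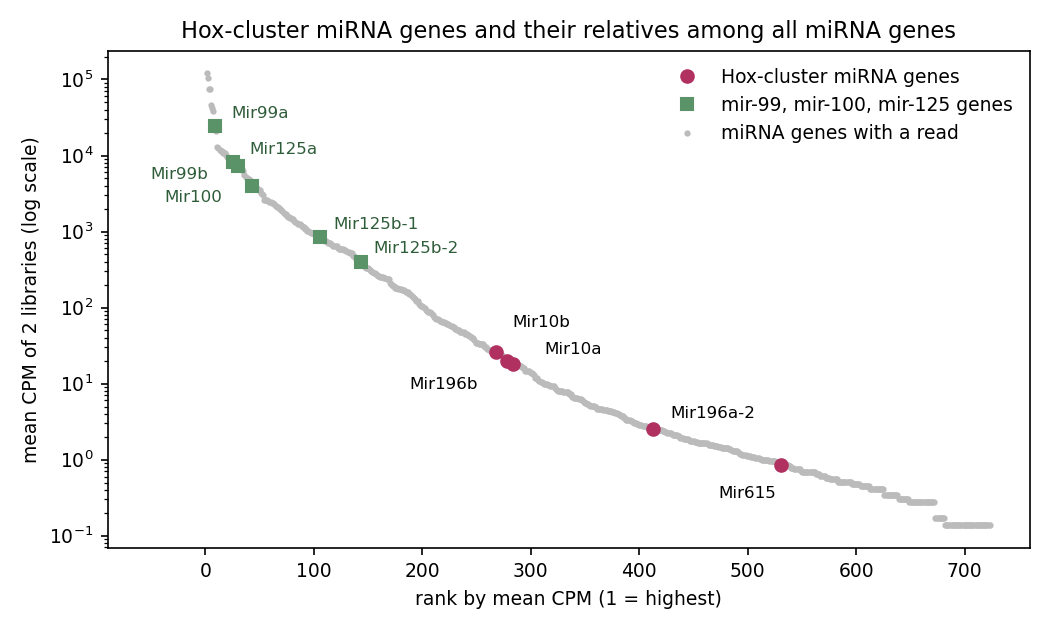
Mean CPM of the 2 libraries on a log scale against rank, for every miRNA gene with at least 1 read (grey), with the Hox-cluster miRNA genes as red circles and the mir-99, mir-100 and mir-125 genes as green squares. The Hox-cluster genes with a read lie between 26.3 and 0.857 CPM, all below the lowest relative, Mir125b-2, at 401 CPM.

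To set replicate 1 against replicate 2, the reads of each gene were tested against the library totals by an exact binomial test (two-sided, Benjamini-Hochberg adjusted) over the 474 genes whose reads summed to 10 or more. Only counting error enters this test, and it compares libraries, not conditions. It called 275 genes, or 58%, and 26.4% were called higher in replicate 1. Of the 6 Hox-cluster genes 4 had enough reads to be tested, and 1, Mir10b, was called.

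Mir10b was 2.49-fold higher in replicate 1 than in replicate 2 (exact 95% interval 1.79 to 3.51, exact binomial test, adjusted p = 5.23e-08). Mir10a had a ratio of 1.28 (0.896 to 1.84, adjusted p = 0.224, exact binomial test) and Mir196b a ratio of 1.48 (1.01 to 2.17, adjusted p = 0.0677, exact binomial test). Mir196b passed the threshold when the library totals left out the most abundant gene (adjusted p = 0.0355, exact binomial test, in a range of 0.0355 to 0.0683 over the scalings and counts without strand). Mir196a-2 had a ratio of 0.871 (0.281 to 2.54, adjusted p = 0.861, exact binomial test), and Mir615, too scarce for the test, 0.249 (0.00526 to 2.22). The 3 detected genes thus had their higher value in replicate 1, for Mir10a and Mir196b without passing the test. Without Mir10b the other 5 genes summed to 46.8 CPM in replicate 1 and 36.2 CPM in replicate 2.

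Calls were common in these libraries. The median log2 ratio of the 4 tested Hox-cluster genes, replicate 1 over replicate 2 with 1 CPM added, was 0.44, and that of all 474 tested genes was -0.04. On this scale Mir10b was at 1.26, and 59 tested genes (12.4%), itself included, lay at least as far from 0. Of these, 20 were higher in replicate 1. The biological coefficient of variation that edgeR estimated from the 2 libraries was 0.382, taken over 399 genes.

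Most mir-10 relatives went the other way from Mir10b. Of the 6, 5 were called higher in replicate 2 and 1 in replicate 1 (Mir125b-2, 1.09-fold). These directions held under all 3 other scalings and without strand, while Mir125b-1 lost its call under TMM scaling and with totals lacking the most abundant gene (adjusted p = 0.0515 and 0.281, exact binomial test). Mir99a had a ratio of 0.578 (0.572 to 0.584) and Mir100 of 0.520 (0.506 to 0.534), replicate 1 over replicate 2. Mir125a, Mir99b and Mir125b-1 lay nearer to even, at 0.870, 0.883 and 0.921. The median log2 ratio of the 6 was -0.19. Over all 474 tested genes, 150 were called higher in replicate 2. With a summed count of at least 100 required, 232 of 295 genes were called, and all 6 relatives had more reads than that.

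**Figure D4:**
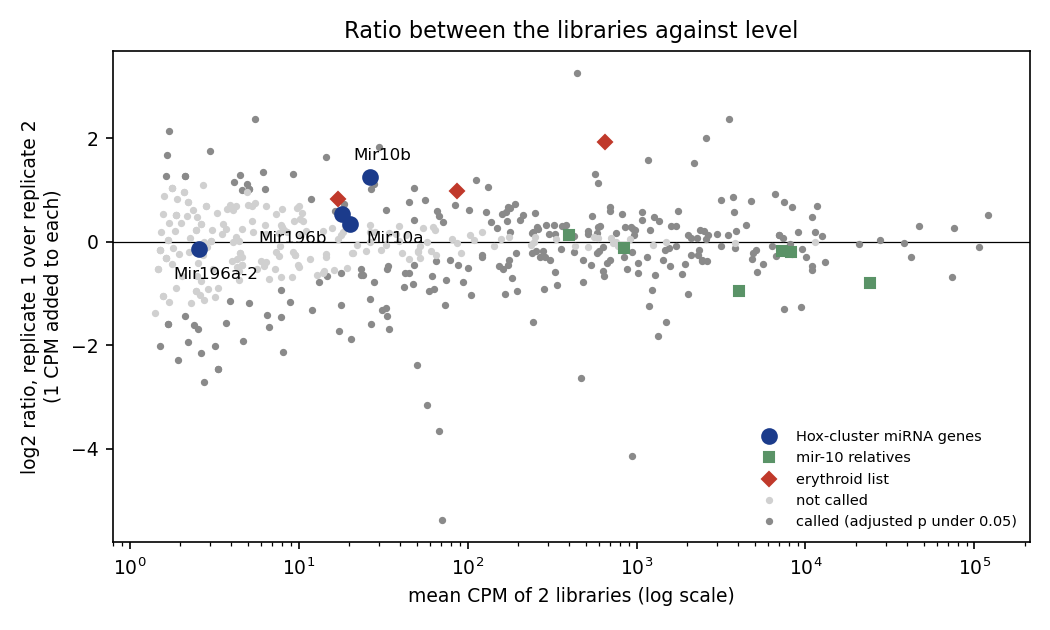
Log2 ratio of replicate 1 over replicate 2 with 1 CPM added, against mean CPM on a log scale, for the 474 genes tested. Mir10b lies at 1.26 and Mir196a-2 just below 0, and the erythroid genes (red diamonds) all lie above 0, while 5 of the 6 mir-10 relatives (green squares) lie below 0. The other marker lists, given below, are not marked. The neuron, endothelial and mural, choroid plexus and ciliated, and epithelial and sensory lists had more calls higher in replicate 2 than 1. The muscle, liver and endocrine list had 1 call each way.

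Markers of other cells also differed between the libraries, as did the share of unmapped reads (26.8% in replicate 1, 14.7% in replicate 2). The part of either in the ratio of Mir10b was not tested. The 3 annotated genes of the erythroid list were all called higher in replicate 1, with a summed level of 1176 CPM there and 340 CPM in replicate 2. Mir451a, a miRNA of red blood cells, led them at 1039 CPM in replicate 1 and 270 CPM in replicate 2, and no annotated gene of that list was at 0. Counted without strand, only Mir144 of these 3 genes had enough reads to be tested, and it too was called higher in replicate 1. Mir451a had too few despite 3042 and 984 sense reads in replicates 1 and 2. The endothelial and mural list summed to 19452 CPM in replicate 1 and 15632 CPM in replicate 2, where endothelial Mir126a was 1.62-fold higher in replicate 1 (1.60 to 1.64), 3 other genes were called higher in replicate 2, and Mir199a-1, Mir145b and Mir126b had no read. With TMM scaling or totals lacking the most abundant gene 2 of these 3 were called, as Mir145a lost its call (adjusted p = 0.05003 and 0.120, exact binomial test). Mir126a, with 42505 and 32684 sense reads in replicates 1 and 2, had too few reads for the test when counted without strand. Counts without strand summed to 2702776 and 3383436 reads on miRNA genes, fewer than the sense counts in both libraries. The cause of this was not tested. In the neuron list 1 gene was called higher in replicate 1 and 4 in replicate 2, with sums of 26571 and 35666 CPM. With TMM scaling or without the most abundant gene in the totals, Mir9-3 lost its call (adjusted p = 0.0616 and 0.127, exact binomial test), which left 3 higher in replicate 2. The choroid plexus and ciliated list summed to 1148 CPM in replicate 1 and 2661 CPM in replicate 2, and most of this was Mir204, a miRNA of choroid plexus epithelium, at 593 and 2101 CPM. In that list 1 of 4 tested genes was called higher in replicate 1 (Mir449a, 1.54-fold) and 2 in replicate 2, and Mir34c was not called (ratio 0.945, adjusted p = 0.197, exact binomial test). The epithelial and sensory list summed to 58.7 and 366 CPM, with 5 of 7 tested genes called higher in replicate 2 and none in replicate 1. Mir182, highest of that list by mean, was at 2.39 CPM in replicate 1, below 6 other genes of the list, and at 140 CPM in replicate 2. In tissue, more cells of a type and more RNA per cell cannot be told apart.

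Some miRNAs known from organs outside the brain were found at higher levels than the Hox-cluster genes, and others were not. In the muscle, liver and endocrine list 4 of 11 genes were detected, and Mir1a-1, Mir133a-1, Mir133a-2 and Mir133b had no read. Genes of this and the other marker lists, the mir-10 relatives apart, were not checked for an arm shared with another gene. A gene without a read there thus does not show that its miRNA was absent. Mir375, known from endocrine cells, was highest by mean at 243 ± 170 CPM (SD, n = 2), with 123 CPM in replicate 1 and 364 CPM in replicate 2. Mir206, a muscle miRNA, was at 234 CPM in replicate 1, above Mir375, and at 174 CPM in replicate 2. Mir122, a liver miRNA, averaged 40.9 ± 4.24 CPM (SD, n = 2), and Mir499, at 9.44 ± 2.10 CPM (SD, n = 2), lay below all 3 detected Hox-cluster genes. The other 3 genes averaged under 1 CPM. Mir375 and Mir206 made up most of the list's sum of 408 CPM in replicate 1 and 591 CPM in replicate 2. The 6 Hox-cluster genes, at 84.4 and 51.3 CPM, summed to less than this list in both libraries.

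Antisense reads hardly touched the Hox-cluster genes. Mir10a had 0 antisense reads in replicate 1 and 2 in replicate 2, and the other 5 genes had none. Counted without strand, Mir10a had 66 reads in each library, and the counts of the other 5 genes did not change.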

How the data were processed

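Small RNA libraries of hippocampus, 1 group of 2, were analysed. The deposited values are whole-number read counts per miRNA gene, in 3 unnamed columns per library, read as counts without strand, sense and antisense because the middle column had a far larger total than the last. The notes deposited with the counts name mm10 and GENCODE M21, and no aligner is named there (not given in the sources used here). Across both libraries, the 4 rows that name no gene (69.5% of reads in replicate 1 and 65.3% in replicate 2) were left out of totals.

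CPM over all miRNA gene rows and exact intervals (95%, counting error only) were computed from the sense counts. No molecular identifiers were used, so reads copied from the same molecule were counted apart, which the intervals do not cover. An exact binomial read test with Benjamini-Hochberg adjustment (threshold 0.05) was run and also tried on simulated counts. The simulated counts held counting error only, so that trial cannot tell how the test behaves on the wider spread between these libraries. All 2202 identifiers matched GENCODE M21. The members and marker lists were chosen with earlier results of these data known. The named genes are the 6 members, 3 nearest genes for each detected member, the detected mir-10 relatives, and the leading gene of each other list; further genes of the lists were named after their values were seen. Alternatives were TMM (edgeR 4.0.16) and DESeq2 1.42.0 scaling, leaving the most abundant gene out of totals, counts without strand, other minimums, another pseudocount, and leaving out either replicate. Python 3.11.15, scipy 1.17.1 and R 4.3.3 were used.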

Additional observations from a re-analysis of the deposited data

How the results depend on the processing

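Of 101 alternative values for the Hox-cluster genes and the whole table, 91 counted as the same. Ratios between the libraries had to keep their direction and their side of the threshold. Counts of genes had to stay within a set fold, wide enough for a change from 3 to 4. Other values had to move by less than the SD between the libraries. Leaving out either replicate moves a mean level, sum or within-library ratio by less than this SD by construction, so those alternatives decide nothing. The same holds for the levels of Mir196a-1, which had no read. The number of Hox-cluster genes called different between the libraries was 2 instead of 1 with library totals lacking the most abundant gene, where Mir196b joined Mir10b. Mir10b kept its call under each alternative tried, with log2 ratios of 1.32 to 1.39 over the scalings and the counts without strand. The summed level of the 6 genes was 21.8 CPM when all reads of the count tables formed the denominator, by construction, since most reads lie outside miRNA genes. Left out in turn, the replicates gave sums of 51.3 to 84.4 CPM, Mir10b to Mir10a ratios of 0.859 to 1.67 and 3 to 4 detected genes. With at least 5 reads in each library 4 genes were detected, Mir196a-2 included. The other values that moved were the level of Mir196a-2 without the most abundant gene (2.92 CPM) and 6 ranks. All 9 nearest genes were the same with a pseudocount of 0.1 CPM. Depth limits Mir615 and Mir196a-2, with 10 or fewer reads in each library, and for both mir-196a genes more depth would not return the reads of their shared arm. With 1 group of 2 libraries, no difference between the libraries has a replicate behind it.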
